A study of Mus musculus with 10 samples.

Results

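The 53 genes described here encode the Wnt, fibroblast growth factor (Fgf), bone morphogenetic protein (Bmp) and growth differentiation factor (Gdf) ligands named as members at the outset: 19 Wnt, 16 Fgf, 9 Bmp and 9 Gdf genes of 21887 protein-coding genes in the gene table. Their cytosines were taken from a methylation count table by position alone, within each gene and 1 kb beyond either end, on the mouse assembly mm10. Cytosines within 1 kb of a gene end, on either side of it, were pooled as the ends, and those inside the gene and farther from both ends as the body. At least 3 distinct CpGs were required, which left 50 genes measured at the ends and 44 in the body, 41 of them in both. Bmp5, Wnt7a and Fgf12 were not measured at the ends, and Wnt8a, Fgf15, Fgf17, Fgf20, Fgf21, Fgf22, Gdf3, Gdf7 and Gdf9 were not measured in the body. The members held 4064 measured CpGs and 5780 cytosines.

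The libraries were made by reduced representation bisulfite sequencing (RRBS), which samples CpG-rich restriction fragments and reads unmethylated cytosines as thymines, from testis DNA of F2 mice. There were 5 libraries in the control group and 5 in the arsenic group. The labels name generation and group but no strain, age, treated ancestor or dose. They also leave unsaid whether each library is its own animal, so all p-values rest on library-to-library spread that could be technical.

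Most, though not all, members of these families are secreted signals that are used again and again in the embryo. Wnt proteins bind Frizzled receptors with Lrp5 or Lrp6 and stabilise β-catenin, or act through other branches. Most Fgf proteins bind receptor tyrosine kinases, while Bmp and Gdf proteins belong to the TGF-β superfamily and signal through Smad proteins. In the male gonad, Fgf9 takes part in testis determination, Wnt4 in the opposing ovarian programme, and Bmp4 and Bmp8b in making and keeping germ cells. Genes of this kind usually have CpG-rich starts that lack DNA methylation, the addition of a methyl group to cytosine.

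Median coverage per cytosine was 36, 29, 35, 27 and 29 reads in control libraries 1 to 5. In arsenic libraries 1 to 5 it was 35, 38, 40, 38 and 36 reads. The groups thus differed in depth, and its effect on their levels was not tested. Pooling gave each member region between 70 and 14472 reads per library. Testis DNA is mostly germ cell DNA, and the libraries carried its marks: the ends of 7 maternally methylated imprinted genes stood at 8.50% to 14.8%, where somatic cells hold an intermediate level, and 3 CpGs upstream of the paternally methylated H19 gene stood at 95.4%. Ends of 6 germ cell genes lay between 12.5% and 32.6%. The values mix all cell types of the testis, and a difference between groups cannot be told apart from a shift in their proportions. Over all gene ends, control libraries 4 and 5 had mean levels of 20.4% and 20.9%, against 19.3% to 19.98% in the remaining libraries. Values with ± below are means and SDs over the 5 libraries of a group, and a level is the share of methylated reads in a region.

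The starts of the ligand genes were rich in CpG. RefSeq promoters, the 250 bases before and 50 bases after a transcription start on GRCm38.p6, were at hand for 36 of the 53 genes and numbered 44. They held a median of 23.5 CG dinucleotides, against 7 over 32851 promoters of all genes. Their median GC content was 65.5% against 52.7%, and the ratio of observed to expected CG was 0.752 against 0.384. The letters CCGG, the site of the enzyme MspI that RRBS commonly uses, were present in 36 ligand promoters (81.8%) and in 52.8% of all promoters of this length (CCGG reads the same on both strands). At least 3 CpGs were covered in 22 ligand promoters, and all 22 had a level under 10%, with a median of 1.54%. Among covered promoters of all genes 88.0% were under 10% and the median was 2.27%.

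The following promoters show where the reads fell, with CpGs measured in all libraries in capitals and all other bases in lower case. Wnt9a and Bmp6 had the most measured end CpGs of their families. Wnt2, Fgf4 and Fgf21 were chosen after their values were seen, Wnt2 for its densely measured start and Fgf4 to show an Fgf gene. Fgf21 was chosen for the partly methylated start described below, but no CpG of its 300 printed bases was measured. The Wnt9a promoter (chr11:59306680-59306979, plus strand) held 58 CG, of which 27 were measured at a mean level of 3.04%. The Bmp6 promoter (chr13:38345466-38345765, plus strand) held 27, with 12 measured at 1.16%. In the Wnt2 promoter (chr6:18030396-18030695, minus strand) 22 of 27 were measured at 0.700%, and in the Fgf4 promoter (chr7:144861136-144861435, plus strand) 15 of 28 at 1.61%. The Fgf21 promoter (chr7:45615441-45615740, minus strand) held 9.
Wnt9a: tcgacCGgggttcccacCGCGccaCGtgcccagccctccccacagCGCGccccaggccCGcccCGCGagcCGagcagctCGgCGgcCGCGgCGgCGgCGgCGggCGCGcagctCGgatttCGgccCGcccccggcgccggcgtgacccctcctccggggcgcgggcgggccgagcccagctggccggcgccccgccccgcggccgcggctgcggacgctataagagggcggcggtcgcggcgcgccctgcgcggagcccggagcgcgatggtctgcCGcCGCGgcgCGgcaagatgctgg
Bmp6: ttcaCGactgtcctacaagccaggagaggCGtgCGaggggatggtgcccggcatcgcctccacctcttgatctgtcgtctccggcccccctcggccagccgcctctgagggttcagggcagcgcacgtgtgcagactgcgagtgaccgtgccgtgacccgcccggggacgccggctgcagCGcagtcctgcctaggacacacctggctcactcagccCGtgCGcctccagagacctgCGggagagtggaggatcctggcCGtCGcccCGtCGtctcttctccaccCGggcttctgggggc
Wnt2: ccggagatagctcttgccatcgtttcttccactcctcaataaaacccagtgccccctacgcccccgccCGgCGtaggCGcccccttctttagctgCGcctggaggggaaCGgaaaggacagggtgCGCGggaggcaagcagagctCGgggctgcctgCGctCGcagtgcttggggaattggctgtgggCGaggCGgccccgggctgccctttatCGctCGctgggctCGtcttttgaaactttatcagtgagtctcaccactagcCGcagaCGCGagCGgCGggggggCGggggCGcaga
Fgf4: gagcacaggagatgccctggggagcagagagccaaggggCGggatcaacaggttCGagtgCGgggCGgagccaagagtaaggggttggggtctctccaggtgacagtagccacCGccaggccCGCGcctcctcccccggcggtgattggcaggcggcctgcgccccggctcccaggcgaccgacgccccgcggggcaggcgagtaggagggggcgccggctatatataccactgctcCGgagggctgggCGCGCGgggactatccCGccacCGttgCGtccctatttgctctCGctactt
Fgf21: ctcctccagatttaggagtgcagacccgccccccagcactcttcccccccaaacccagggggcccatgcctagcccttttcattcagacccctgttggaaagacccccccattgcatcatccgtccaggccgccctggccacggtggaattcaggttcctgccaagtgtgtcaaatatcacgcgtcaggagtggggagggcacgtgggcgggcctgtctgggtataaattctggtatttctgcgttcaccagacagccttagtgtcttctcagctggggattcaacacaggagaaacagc

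Most ligand gene ends were weakly methylated, as were most gene ends of the genome. The median end level was 4.72% over the 50 measured ligand genes and 4.69% over 14236 genes, and 33 ligand genes (66.0%) lay under 10%, against 62.4% of all genes. Single CpGs gave the same picture: 84.3% of 1717 end CpGs of ligand genes were under 10%, against 84.4% for all genes. Family medians over the measured members were 7.20% for Wnt, 2.43% for Fgf, 6.50% for Bmp and 7.72% for Gdf. These medians are descriptions without a test, since genes of a family are not replicates.

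Among the listed members of each family the ends ran from near 1% to above 30%. The lowest Wnt ends were those of Wnt4 at 1.004% and Wnt2b at 1.39%, and the highest were Wnt8b, a forebrain Wnt, at 64.6% and Wnt16 at 26.7%. In the Fgf family Fgf9 stood at 1.54% and Fgf10, which drives lung and limb budding, at 1.64%. At the other extreme were Fgf21, an endocrine hormone of the liver, at 53.1% and Fgf22 at 85.4%. Bmp2 and Bmp6 had the lowest Bmp ends with 0.981% and 1.11%. Bmp1, which encodes a procollagen-cleaving protease and not a TGF-β type ligand, stood at 51.4%, and Bmp4 at 70.3%. Among Gdf genes, Gdf6 at 1.54% and Gdf7 at 2.32% were lowest. Gdf3, a Nodal-like ligand of pluripotent cells, was highest of the listed Gdf genes at 35.2%, followed by Gdf1 at 16.2%, a gene of left-right patterning. The member list does not hold every gene of the Fgf, Bmp and Gdf families. Outside it, Fgf6 ends stood at 20.3%, Fgf14 at 4.54%, Fgf23 at 88.6%, Bmp10 at 90.1% and Gdf2 at 81.8%.

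**Figure D1:**
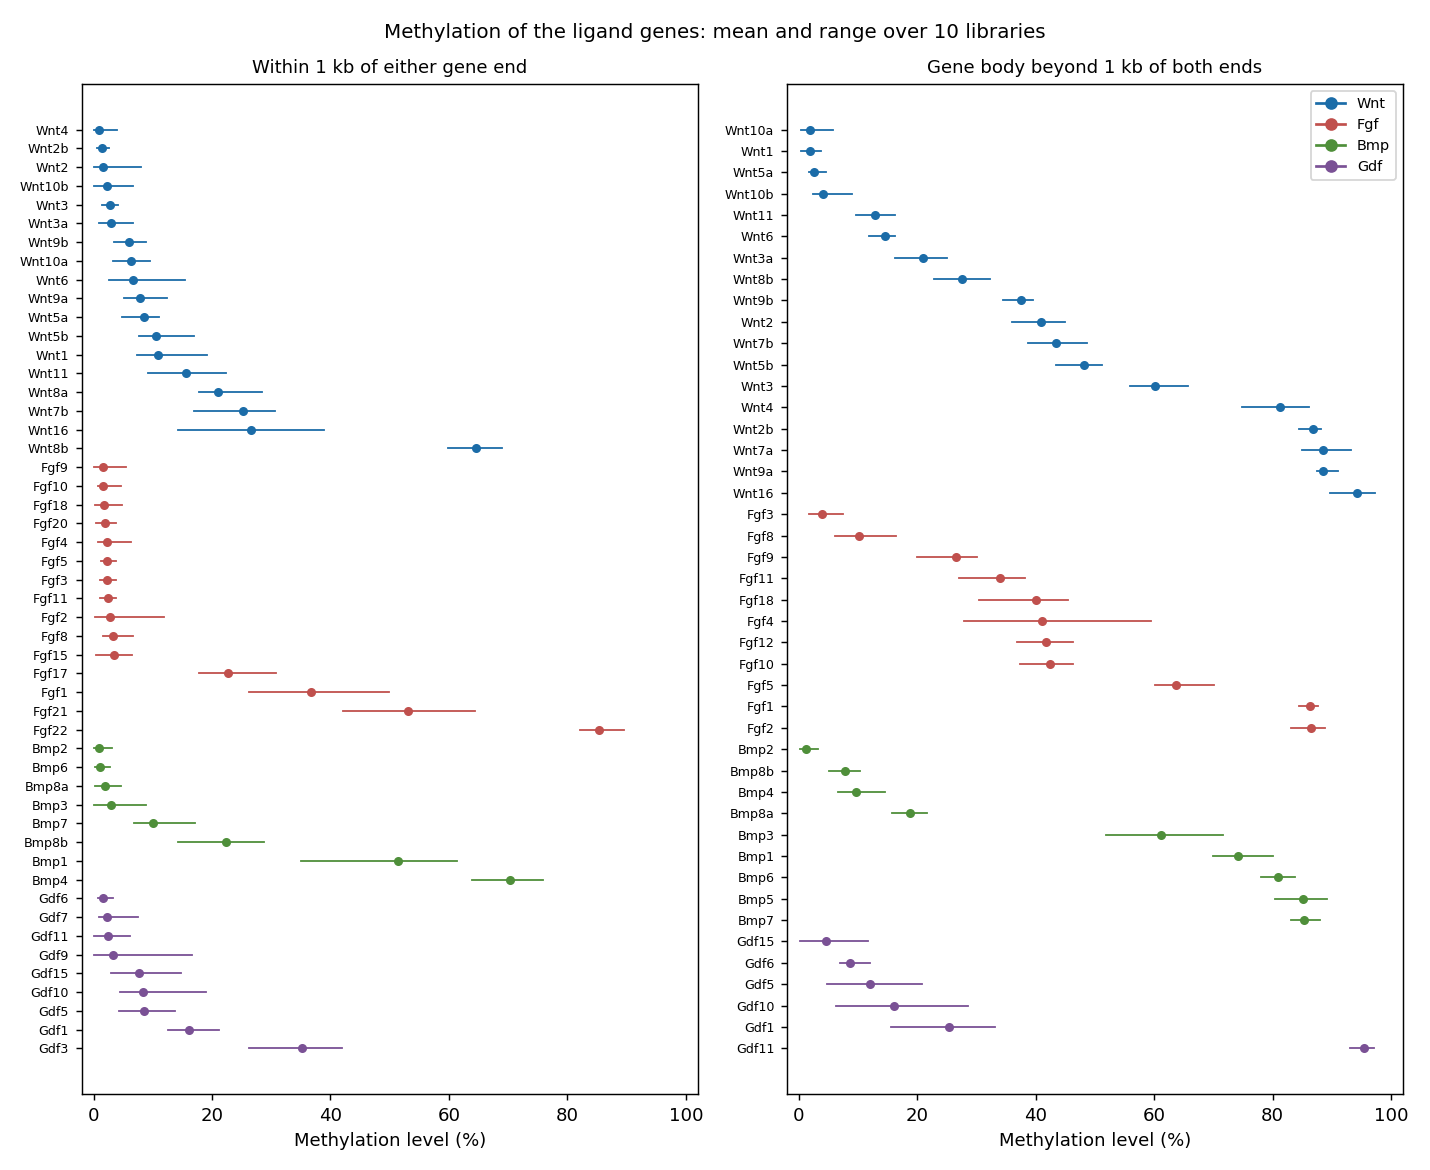
Methylation level (%, horizontal axes) of each measured ligand gene at its ends (left, 50 genes) and in its body (right, 44 genes). Points are means over 10 libraries, lines run from the lowest to the highest library, and colours mark the families. Most end values lie under 10%, while body values spread from 1.21% (Bmp2) to 95.5% (Gdf11).

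Several high end values belonged to the far end of the gene and not to its start. Strand was known for 36 members. Taking the outer limit of the gene on the 5′ side as its start, 29 starts had a median of 2.35% with 25 under 10%, against a median of 2.73% over all genes. The 11 measured far ends had a median of 26.7%, against 87.1% over all genes. Fgf22 illustrates the split, with 1.47% over 6 CpGs at its start and 90.6% over 30 CpGs at its far end. Bmp8b stood at 4.16% at its start and 94.0% at its far end, Wnt9a at 2.27% and 64.3%, and Bmp4 at 11.02% and 82.1%. The end values of Wnt8b and Wnt16 came from their far ends only. With a window of 500 bp the ends of Fgf22 stood at 1.47% and those of Bmp4 at 17.7%. The start of Fgf21 was methylated at 47.6% over 7 CpGs, and that of Gdf15, a stress-induced ligand, at 50.8% over only 3 CpGs, with libraries from 15.4% to 94.4%. Bmp1, with no listed strand, moved from 51.4% to 89.6% when only cytosines of coverage 20 or more were kept.

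Ligand gene bodies had lower levels than gene bodies at large, given here as a description with no test over the list. The median body level was 38.8% over 44 ligand genes and 82.3% over 14041 genes. Levels under 20% were found in 16 ligand bodies (36.4%), against 9.34% of all bodies, and levels over 80% in 11 (25%), against 53.5%. Of 2421 body CpGs in ligand genes, 48.7% were under 10% and 35.4% over 80%, while for all genes the shares were 20.7% and 62.6%. RRBS samples CpG-rich fragments, so a body value describes the sampled CpGs and not the gene as a whole. Since the body was set by the outer gene limits, it also holds transcription starts that lie farther inside. Among these were the listed Wnt2 promoter (22 measured CpGs at 0.700%) and an Fgf12 promoter (24 at 1.07%). How much such starts lower the ligand bodies was not tested. The ligand median stayed between 30.7% and 47.6% under the other settings tried.

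Over the measured members of each family, median body levels were 39.2% for Wnt, 41.1% for Fgf, 61.2% for Bmp and 14.1% for Gdf. The Gdf value rests on 6 genes. Near-unmethylated bodies were those of Bmp2, a bone and heart inducer, at 1.21%, Wnt10a, a tooth and hair gene, at 1.88%, Wnt1, which patterns the midbrain, at 1.89%, and Wnt5a, a non-canonical Wnt of outgrowing tissues, at 2.56%. All 26 body CpGs of Bmp2 and 43 of 44 in Wnt10a were under 10%. Fgf3 (3.98%), Wnt10b (4.07%), Gdf15 (4.66%), Bmp8b (7.77%), Gdf6 (8.72%), Bmp4 (9.69%) and Fgf8 (10.2%) followed. The most methylated bodies were Gdf11, a regulator of axial patterning, at 95.5% and Wnt16 at 94.2%, each with all measured body CpGs over 80%. Wnt9a (88.6%), Fgf2 (86.4%), Fgf1 (86.3%), Bmp7 (85.3%) and Bmp5 (85.1%) were also high. The Wnt16 body rests on 7 CpGs and fell to 46.5% when the body was allowed to begin 500 bp from the ends.

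Comparing both regions of a gene, the body was more methylated than the ends in 33 of 41 ligand genes, with a median difference of 22.8 percentage points. All 10 Fgf genes measured in both regions were of this kind, as were 12 of 17 Wnt, 6 of 8 Bmp and 5 of 6 Gdf genes. The opposite order held for Bmp4, Wnt8b, Bmp8b, Wnt1, Wnt5a, Wnt10a, Gdf15 and Wnt11. In Bmp4 the body at 9.69% lay far under the ends at 70.3%, which hold the methylated far end. Ends and body were both under 10% in 7 genes.

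Body level went with gene length in the ligand genes. Genes under 10 kb had a median body level of 9.69% (9 genes), those of 10 to 25 kb 20.7% (14), those of 25 to 50 kb 41.0% (13) and those over 50 kb 83.0% (8). All genes of the same lengths had medians of 75.3%, 84.5%, 85.8% and 80.7%. The ligand genes thus lay under the genome-wide median in the 3 shorter classes and near it in the longest. In the longest class were the Fgf2, Fgf1, Bmp7, Bmp5 and Bmp6 bodies at 81.0% to 86.4%, together with Wnt5b (48.2%), Fgf10 (42.5%) and Fgf12 (41.7%).

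**Figure D2:**
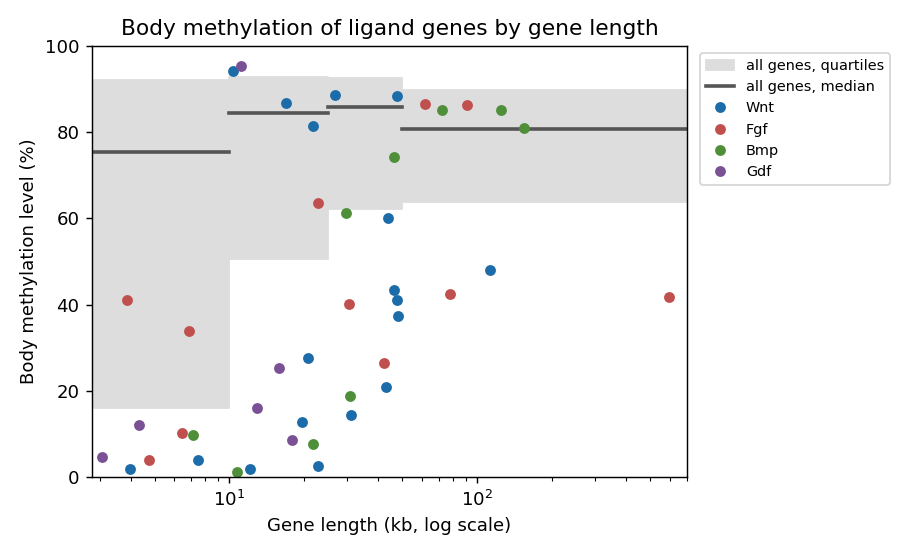
Body methylation level (%, vertical axis) of 44 ligand genes against gene length (kb, log scale), 1 point per gene coloured by family. Dark lines and grey bands give the median and quartiles of all genes in the same length class. Ligand genes under 10 kb have a median of 9.69% where all genes have 75.3%.

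CpGs were also ordered by distance from the nearest listed transcription start inside the gene, which was possible only for genes with a listed promoter. Of the 53 members 36 had one, and Bmp2, Wnt10a, Wnt5a and Fgf8, all with low bodies, did not. In this subset a difference in the same direction appeared beyond 1 kb. Within 1 kb of a start, ligand genes and all genes had medians of 2.44% and 2.60%. Between 1 and 2 kb the ligand median was 4.01% (16 genes) and that of all genes 36.5%. Between 2 and 5 kb the values were 68.7% (16 genes) and 89.2%. Farther in, ligand medians were 82.3% at 5 to 10 kb, 78.9% at 10 to 20 kb and 64.8% beyond 20 kb, while all genes stayed between 89.5% and 90.7%. The profile includes CpGs shared with other genes. Bmp8b stood at 5.80% at 10 to 20 kb, over CpGs shared with Oxct2b. Wnt9b, whose outer limit passes the start of Wnt3, stood at 3.68% beyond 20 kb.

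**Figure D3:**
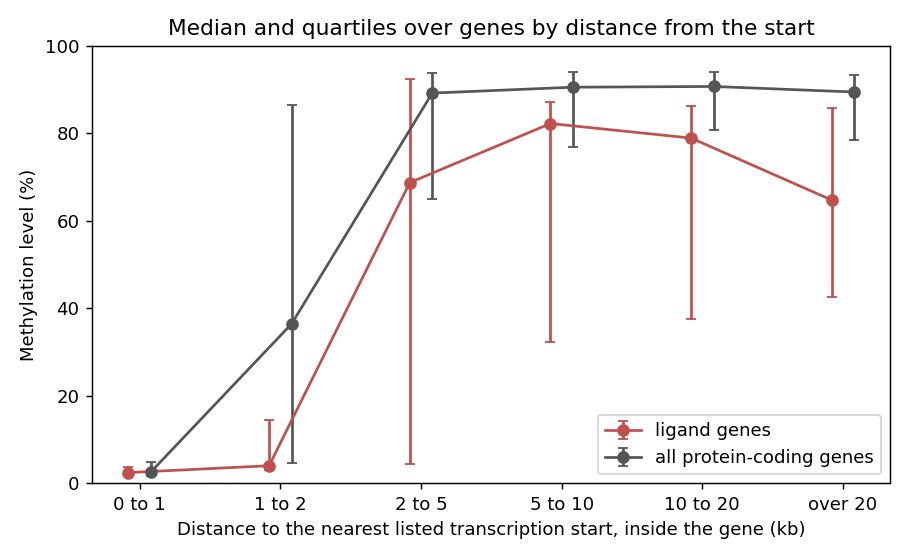
Median methylation level (%, vertical axis) over ligand genes (red) and over all protein-coding genes (grey) by distance (kb) from the nearest listed transcription start inside the gene; bars are the lower and upper quartiles over genes. At 1 to 2 kb the ligand median is 4.01% and that of all genes 36.5%, while within 1 kb both lie under 3%. Only genes with a listed promoter enter, and CpGs shared with other genes are included.

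Single genes differed in how far the low region extended. Under 20% were 12 of 16 ligand genes at 1 to 2 kb and 6 of 16 at 2 to 5 kb. Already high were Wnt5b (85.4%) and Fgf22 (89.5%) at 1 to 2 kb, and Wnt4 (92.5%) and Fgf2 (95.4%) at 2 to 5 kb. The genes that follow are examples of the low kind. Wnt2, which acts in lung development, stood at 0.902% within 1 kb of its start, 3.40% at 1 to 2 kb, 51.2% at 2 to 5 kb and 86.2% at 10 to 20 kb. Fgf5, a regulator of the hair cycle, rose from 2.24% within 1 kb to 4.89% at 1 to 2 kb and 86.1% at 10 to 20 kb. Wnt11, a branching factor of the kidney, reached 7.49% at 1 to 2 kb, 23.7% at 5 to 10 kb and 71.9% at 10 to 20 kb. Wnt10b, an inhibitor of fat cell formation, stayed low throughout, with 3.09% at 1 to 2 kb, 17.4% at 2 to 5 kb and 4.21% at 5 to 10 kb. In Wnt5a all 87 body CpGs were under 10%.

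Part of the body signal lay where ligand genes overlap other genes. The Bmp8a body (chr4:123312645-123343252 for the gene) held 17 CpGs of its own at 91.0% and 53 shared with Oxct2a, an intronless testis gene, at 4.16%. Bmp8b (chr4:123104308-123126094) likewise held 60 CpGs shared with Oxct2b at 5.80%, and 22 of its own at 11.2%. Wnt5b had 66.9% over CpGs of its own and 12.02% over those shared with Fbxl14 and Gm52875. On chromosome 11 the outer limit of the Wnt9b gene reaches past the start of Wnt3, and the 38 body CpGs of Wnt9b within the Wnt3 locus stood at 1.58% against 49.6% over its remaining 104. All measured CpGs of Gdf1 were shared with Cers1 or Upf1, those of Fgf1 with Arhgap26, and the end CpGs of Gdf9 with Uqcrq. All 73 end CpGs of Wnt3 and all 38 of Wnt9b were shared between these 2 genes. Of 70 Fgf11 end CpGs, 38 were shared with Chrnb1 and 32 with Tmem102. Other shared end CpGs were 67 of 72 in Wnt5b (Gm52875), 37 of 48 in Gdf7 (Ldah) and 9 of 13 in Bmp1 (Sftpc). Smaller shares lay in Fgf17, Fgf22 and Bmp8b ends. Values over shared CpGs cannot be assigned to the ligand gene alone. The Gdf1 body moved from 25.3% to 82.5% with coverage of at least 20. Bmp8a and Bmp8b are close paralogs, as are Oxct2a and Oxct2b, and reads could be split between the copies, so their values are uncertain. Leaving out all shared CpGs gave a median ligand body level of 41.0%.

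The study compared the arsenic group with the control group. No ligand gene passed the test at its ends (0 of 50) or in its body (0 of 44), where a call took 10 percentage points or more and a Benjamini-Hochberg adjusted p under 0.05 in a quasi-binomial model fitted on all genes. Over all genes the percentage called was 0 for 14236 ends and 0 for 14041 bodies. The 33 ligand ends and 10 ligand bodies with a level under 10% could hardly fall by 10 points. Without a minimum difference, 0 ligand regions and 0 regions over all genes were called as well. An unadjusted p under 0.05 was found for 2 ligand ends, 1 lower and 1 higher in arsenic, beside 5.97% of all ends (4.36% lower, 1.62% higher). It was found for 5 ligand bodies, all lower in arsenic, beside 5.45% of all bodies (3.44% lower, 2.01% higher). In limma on log2 ratios, 0 ligand ends and bodies were called, with 3 and 4 at an unadjusted p under 0.05, beside 5.08% of all ends and 4.94% of all bodies. No ligand end had groups that did not overlap, a separation seen in 0.927% of all ends (0.646% lower, 0.281% higher in arsenic).

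As families, the ends differed little between groups. Mean end levels over the members were 12.1% ± 0.780 in control and 12.5% ± 0.517 in arsenic for Wnt, and 14.6% ± 0.758 and 15.2% ± 0.670 for Fgf. They were 20.4% ± 1.14 and 19.9% ± 1.76 for Bmp, and 9.84% ± 0.562 and 9.18% ± 0.692 for Gdf. The groups' libraries overlapped in all 4 families. The mean was lower in arsenic for 26 of 50 ligand ends (52.0%), beside 58.5% of all gene ends.

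In the bodies, the Wnt family stood at 42.5% ± 0.399 in control and 41.5% ± 0.475 in arsenic. Control libraries 1 to 5 had mean Wnt body levels of 42.5%, 43.1%, 42.3%, 42.7% and 41.99%, and arsenic libraries 1 to 5 had 41.6%, 41.3%, 41.8%, 40.7% and 41.95%. The arsenic libraries all lay under the control libraries, though control 5 and arsenic 5 nearly met, and no test was made of a mean over members. The mean includes Wnt4 (-5.35 points) and Wnt10b (-2.89 points), which fell most among Wnt bodies. How far the separation of the libraries rests on these genes was not tested. Of 18 Wnt bodies 15 (83.3%) had a lower mean in arsenic, beside 53.9% of all bodies, and their median difference was -0.72 points, beside -0.15 over all bodies. The remaining families overlapped between groups: Fgf bodies stood at 43.4% ± 2.42 and 43.2% ± 1.18, Bmp bodies at 47.3% ± 0.886 and 47.0% ± 1.16, and Gdf bodies at 27.6% ± 1.79 and 26.6% ± 1.69, in control and arsenic. Whether the families differ in their group difference was not tested.

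**Figure D4:**
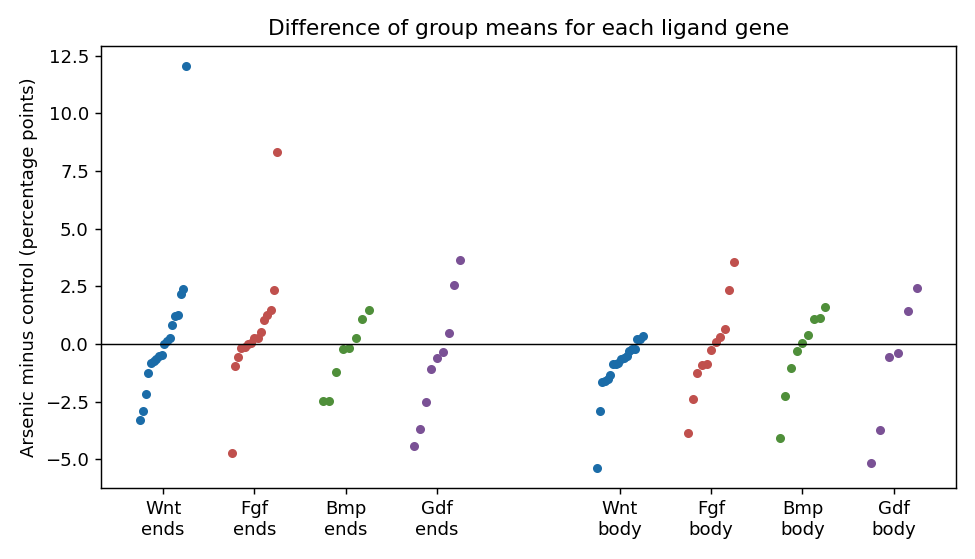
Difference of group means, arsenic minus control (percentage points, vertical axis), for each measured ligand gene, 1 point per gene, sorted within family and region. Wnt16 ends stand highest, 12.05 points above control, and 15 of 18 Wnt bodies lie under the line.

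The smallest p among ligand bodies was that of Wnt10b (chr15:98770712-98778206). Its 80 body CpGs stood at 3.81%, 4.05%, 4.94%, 5.79% and 9.002% in control libraries 1 to 5 and at 2.33%, 2.36%, 2.69%, 2.69% and 3.06% in arsenic libraries 1 to 5. Every arsenic library lay under every control library, and no other ligand region had groups that did not overlap. Such separation was seen in 0.798% of all bodies (0.499% lower, 0.299% higher in arsenic). The group levels were 5.52% ± 2.10 and 2.63% ± 0.297, with an adjusted p = 0.775 in the quasi-binomial model. Of the 80 CpGs, 53 were lower in arsenic, 10 higher and 17 tied. CpGs of a region come from the same libraries, so such counts, here and below, add no independent support. The highest libraries were control 4 and 5, which stood high over all gene ends as well. Without both, the difference in pooled reads shrank from -2.77 to -1.62 points.

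Wnt4 (chr4:137277635-137299501), a gene of the ovarian pathway, had a methylated body beside near-unmethylated ends. Over 62 body CpGs, control libraries 1 to 5 stood at 84.3%, 86.2%, 85.1%, 85.8% and 78.6%, and arsenic libraries 1 to 5 at 77.6%, 74.9%, 78.7%, 79.0% and 83.1%. The groups overlapped only through control 5, which lay under 3 arsenic libraries. Means were 84.0% ± 3.09 and 78.7% ± 2.97, with an adjusted p = 0.847, and 51 of 62 CpGs were lower in arsenic. The run of CpGs with the largest fall, 32 CpGs at chr4:137296305-137296739, had 78.4% ± 4.87 in control and 70.6% ± 4.63 in arsenic libraries, and the groups overlapped. The Wnt4 ends had means of 1.27% ± 1.62 and 0.741% ± 0.832, within the spread between libraries.

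Fgf8 (chr19:45736491-45742941) patterns limbs and brain, and Bmp8b serves male germ cells; both had low bodies that were lower in arsenic before adjustment. Fgf8 stood at 11.8%, 7.70%, 16.5%, 12.98% and 11.7% in control libraries 1 to 5 and at 8.19%, 8.59%, 9.24%, 9.12% and 6.11% in arsenic libraries 1 to 5 (adjusted p = 0.847). Control 2 lay among the arsenic libraries, and the remaining control libraries above all of them. In pooled reads the Fgf8 difference was -4.01 points, and -1.48 with a window of 500 bp. Bmp8b stood at 6.79%, 10.3%, 9.96%, 8.56% and 8.85% in control and at 7.57%, 6.03%, 5.18%, 5.72% and 8.75% in arsenic (adjusted p = 0.847). The groups overlapped through control 1 and 4 and arsenic 1 and 5. In pooled reads the Bmp8b difference was -2.40 points, and -1.45 with a window of 500 bp. The 60 CpGs shared with Oxct2b had levels of 7.33% ± 1.20 and 4.27% ± 1.67, while the 22 own CpGs of Bmp8b had 11.7% ± 3.80 and 10.7% ± 3.46.

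Bmp1 (chr14:70474555-70520716) had body levels of 77.7%, 70.5%, 80.1%, 78.1% and 74.7% in control libraries 1 to 5 and 70.0%, 71.9%, 72.0%, 74.4% and 72.5% in arsenic libraries 1 to 5. The arsenic values lay in the lower part of the control range or just under it (adjusted p = 0.901), and 19 of 33 CpGs were lower. A run of 5 partly methylated CpGs at chr14:70508552-70508751 stood at 24.2% ± 4.75 in control and 13.2% ± 9.25 in arsenic.

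At the ends, Fgf2 (chr3:37348477-37410106), which supports germ line stem cells in culture, had the smallest p. Its 21 start CpGs stood at 0.252%, 0.861%, 11.8%, 5.48% and 7.28% in control libraries 1 to 5 and at 0.362%, 0.292%, 0.378%, 0.244% and 0.776% in arsenic libraries 1 to 5. Control 1 lay within the arsenic range, control 2 just above it and control 3, 4 and 5 far above it. The test gave an adjusted p = 0.744, with 20 of 21 CpGs lower in arsenic. The difference in pooled reads was -4.47 points, -2.30 without control 3 and -2.18 with coverage of at least 20. All 21 CpGs had a mean under 10%.

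Wnt16, which acts on bone and blood stem cells, went the other way at its far end. Its 5 CpGs (chr6:22297814-22298068) stood at 19.8%, 14.3%, 18.7%, 27.4% and 23.0% in control libraries 1 to 5 and at 27.7%, 31.5%, 38.4%, 27.0% and 38.9% in arsenic libraries 1 to 5. Only control 4 and arsenic 4 crossed. Means were 20.6% ± 4.92 and 32.7% ± 5.71, with an adjusted p = 0.775, and all 5 CpGs were higher in arsenic. The Wnt16 body, at 94.0% ± 3.29 and 94.3% ± 1.49, did not differ beyond the spread.

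**Figure D5:**
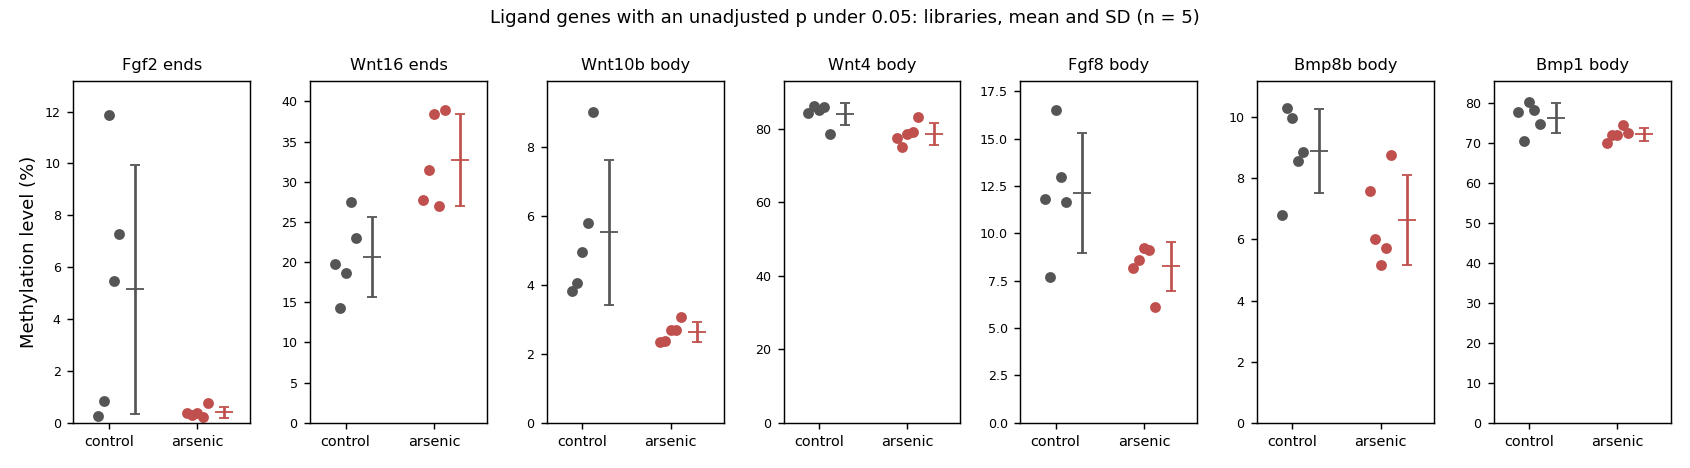
Methylation level (%, vertical axes from 0, each panel with its own scale) in each library for the 7 ligand regions with an unadjusted p under 0.05: points are libraries 1 to 5 of each group, bars the mean and SD. Wnt10b body is the only panel in which the groups do not overlap.

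The next smallest p-values in each family did not fall under 0.05, and their groups overlapped. At the ends, Fgf21 stood at 48.9% ± 3.71 in control and 57.2% ± 8.91 in arsenic, with arsenic library 3 at 42.1% under all control libraries. Gdf1 ends were 17.4% ± 2.79 and 14.9% ± 1.74, Gdf10 ends 10.1% ± 5.35 and 6.47% ± 0.638, and Gdf5 ends 10.7% ± 3.12 and 6.29% ± 3.68. Wnt11 ends were 17.3% ± 3.36 and 14.0% ± 3.55, Wnt8a ends 22.5% ± 3.57 and 19.6% ± 2.20, and Fgf10 ends 2.11% ± 1.54 and 1.17% ± 0.369. Over these genes the unadjusted p lay between 0.0931 (Gdf1 ends) and 0.255 (Gdf5 ends). Among Bmp genes, Bmp8a ends were 1.23% ± 1.11 and 2.69% ± 1.64, Bmp7 ends 11.3% ± 4.03 and 8.80% ± 1.34, and Bmp4 ends 69.7% ± 4.05 and 70.8% ± 3.08.

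In the bodies, the Gdf5 gene of joint formation had levels of 14.6% ± 5.26 in control and 9.45% ± 3.92 in arsenic libraries. The Wnt5a body was 3.003% ± 1.09 and 2.12% ± 0.474, with control 4 and 5 again highest at 3.56% and 4.66%. The Fgf9 body was higher in arsenic on average, at 25.4% ± 3.601 and 27.7% ± 1.35, as was Fgf18, a cartilage and bone factor, at 38.3% ± 5.15 and 41.9% ± 3.98. Bmp4 (8.90% ± 3.21 and 10.5% ± 2.63), Gdf15 (3.45% ± 2.92 and 5.88% ± 3.998) and Gdf1 (27.2% ± 3.93 and 23.5% ± 4.91) bodies differed by less than 2 SDs of a group.

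The partners of these ligands were read from a list of 93 receptors, inhibitors, transducers, targets and related ligands, of which 83 were measured at the ends and 77 in the body. Their median end level was 3.39%, under those of the ligand genes and of all genes, and their median body level was 63.3%, between the ligand genes and all genes. None was called (0 of 83 and 0 of 77). At an unadjusted p under 0.05 there were 3 ends, 2 lower and 1 higher in arsenic, and 6 bodies, 5 lower and 1 higher, to be read beside the same 5.97% and 5.45% of all genes.

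Among inhibitors, the ends of Grem1, a secreted Bmp antagonist, stood at 1.28% ± 0.732 in control and 3.67% ± 1.37 in arsenic (adjusted p = 0.775). Among receptors, the body of Fzd8, a Wnt receptor, stood at 8.89% ± 2.19 and 4.36% ± 2.82 (adjusted p = 0.847). The co-receptors Kl and Klb serve endocrine Fgf hormones. Kl ends stood at 19.2% ± 2.74 and 15.2% ± 3.39, and the Klb body at 61.7% ± 1.66 and 57.2% ± 3.92. Of the related ligands, Inhba and Inhbb encode subunits of activin and inhibin. The Inhba body stood at 6.01% ± 1.20 and 4.52% ± 0.583, with every arsenic library under every control library (adjusted p = 0.865 in the quasi-binomial model). It was 1 of 77 listed bodies with such a separation, which was seen in 0.798% of all bodies (0.499% lower, 0.299% higher in arsenic). Without control 1 the Inhba difference went from -1.68 to -0.935 points. Inhbb ends stood at 2.32% ± 1.53 and 0.839% ± 0.989. The median body level was 76.4% over 16 Wnt receptor and secretion genes, 68.2% over 8 Bmp receptors and 33.1% over 11 related ligands outside the member list. At the ends, the 9 measured related ligands had a median of 20.3%.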

How the data were processed

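DNA methylation was measured in testis DNA of 10 libraries. Per the file headers, the deposited table holds, for each cytosine and library, a count of all reads, of methylated and of unmethylated reads, as methylKit writes when it unites libraries; these counts were not normalised. The submitters' processing notes name Trim Galore 0.6.5, Bismark 0.22.3, methylKit 1.22.0 and mm10; the sources used here give no settings. The table holds 1988759 cytosines on 1407384 CpGs, each with at least 10 reads in every library.

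Gene limits came from RefSeq on GRCm38.p6, the assembly behind mm10. Read counts were pooled per gene, region and library. A region with highly covered fragments is weighted towards them. Group differences were tested in a quasi-binomial logistic model, with Pearson dispersion squeezed across genes as in limma and not allowed under 1, an F test, and Benjamini-Hochberg adjustment over all measured genes of a region. Python 3.11.15, numpy 2.4.6, pandas 2.3.3, R 4.3.3 and limma 3.58.1 were used. The model was tested on simulated reads with a fixed spread between libraries, where 200 genes per region were changed by 20 percentage points. It called 157 of them at the ends and 104 in the bodies, along with 0 and 3 unchanged genes. Changes of that size could thus be missed, more so in the bodies. Reads carry no molecular identifiers.

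The members and lists were chosen with earlier results of these data known. Named genes were, per family and region, the 2 highest, the 2 lowest and the 3 with the smallest p, and the 3 pathway genes with the smallest p per region; further genes were named after their values were seen. Alternatives were no minimum difference, a coverage minimum of 20, a window of 500 bp, at least 5 CpGs, a coverage cap and equal weight per cytosine. Others were each library left out, a replicate block, limma on log2 ratios and a binomial test on reads. Leaving out CpGs of other genes and the medians over members were added after the data were seen. Exons and introns were not analysed here.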

Additional observations from a re-analysis of the deposited data

Results flagged for a closer look

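In 11 of 122 groups of 5 libraries, 1 library stood apart from the other 4 by Dixon's test at the 95% level, which chance alone flags in about 1 of 20 groups. Among Wnt genes these were the Wnt10a body in control library 4, at 5.74% against 0.688% to 1.45% in the other control libraries, and the Wnt4 body in control library 5, at 78.6% against 84.3% to 86.2%. Among Fgf genes, the Fgf2 ends in arsenic library 5 stood at 0.776% against 0.244% to 0.378%, and the Fgf2 body in the same library at 83.0% against 86.1% to 87.3%. The Fgf3 body in arsenic library 3 stood at 2.38% against 4.11% to 4.72%, and the Fgf9 body in arsenic library 2 at 30.1% against 26.8% to 27.7%.

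Among Bmp and Gdf genes, the Bmp6 ends in control library 4 stood at 2.50% against 0.452% to 0.708%. The Bmp7 body in arsenic library 5 stood at 88.0% against 84.1% to 84.9%, and the Gdf5 ends in arsenic library 2 at 12.9% against 4.32% to 5.07%. Of the related ligands, the Inhbb ends in arsenic library 2 stood at 2.60% against 0.328% to 0.522%, and the Inhba body in control library 1 at 8.15% against 5.41% to 5.61%.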

How the results depend on the processing

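The count of ligand genes called was 0 under the settings tried except a binomial test on reads, which ignores the spread between libraries and called 1 ligand end (Wnt16, adjusted p = 2.2e-13), with 82 ends and 44 bodies over all genes. Limma called 1 gene end and 0 bodies over all genes. The median ligand end level was 6.79% with coverage of at least 20 and 2.85% with a window of 500 bp. The median ligand body level was 47.6% with that coverage, 30.7% with that window, 33.8% with cytosines weighted equally and 41.0% without CpGs of other genes. Without 1 library each, these medians ran from 4.58% to 4.93% and from 38.2% to 39.1%, no gene was called, and the Wnt body difference ran from -1.16 to -0.85 points; the Fgf body difference ran from -0.99 to 0.56. Family means also crossed 0 for Wnt ends (-0.072 points) and Fgf body (0.11) with 500 bp windows, for Fgf body without control libraries 4 and 5 (0.20), and for Bmp ends with cytosines weighted equally (0.096). Signs turned for Fgf10 ends (0.029 points), Bmp7 ends (0.036) and Bmp4 ends (-0.60) with 500 bp windows, for Bmp4 ends without control library 1 (-0.25, and up to 2.54 without other single libraries), and for Gdf1 body (2.27) and Inhbb ends (0.42) with coverage of at least 20; the cause was not tested. Wnt16 ends had too few CpGs for a value with 500 bp windows. Same-numbered libraries did not deviate together (r from -0.0027 to 0.0070, other pairs from -0.0071 to 0.0070). This cannot settle whether the numbers pair the libraries, since libraries that share an origin need not deviate together. With a replicate block 0 genes were called, and an unadjusted p under 0.05 was found for 1183 ends in place of 850 and 846 bodies in place of 765. Adjusted p-values of Wnt10b body ran from 0.538 to 0.927 over the settings that use the spread between libraries, and those of Fgf2 ends from 0.366 to 0.929. Median coverage of 27 to 40 reads limits what a single CpG can show, and no strand was at hand for the members without a listed promoter.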
